A study of Mus musculus with 2 samples.

Results

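Of the 123349 clusters of UPF1-bound RNA that the authors deposited, 973 (0.789%) shared no nucleotide with any annotated gene locus on either strand, and these are described here by their position and by the gene next to them. A cluster is a stretch of RNA in which sequenced fragments piled up. The loci were the 49997 pairs of outer gene boundaries that RefSeq gives for GRCm38.p6, the assembly behind mm10, and a cluster counted as outside when it touched none of them, whatever the type of gene. The other 122376 clusters overlapped at least 1 locus.

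UPF1 is an RNA helicase and the core factor of nonsense-mediated decay, the pathway that destroys messenger RNAs on which translation stops too early, and it also binds many messenger RNAs that are not decay targets, above all in the untranslated region that follows the stop codon. Where that region ends is set by cleavage and polyadenylation, and many genes use several such sites, with long forms common in neural cells. An annotation that records a shorter form leaves the rest of such an RNA outside its gene, next to the annotated 3′ end and on the same strand. RNA can also leave a locus at its start, in either direction from the promoter, or come from a gene that was never annotated.

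The cells were mouse neural progenitors from cortex, grown in DMEM/F12 medium with B27 supplement, whose Upf2 alleles (Upf2 encodes a partner of UPF1 in decay) are flanked by loxP sites, written Upf2fl/fl in the labels. Both libraries carry the word MOCK, which the labels do not explain, and nothing in them says that Upf2 was deleted. RNA was trimmed with RNase I and pulled down with an antibody against UPF1, and the immunoprecipitate was compared with 1 input library, a method known as enhanced crosslinking and immunoprecipitation. Neither the 1 immunoprecipitate nor the 1 input was replicated, so intervals below cover counting error only and no p-value was computed across clusters. A cluster overlapped the locus of 11 of 11 progenitor markers, of 8 of 9 glial and 5 of 7 neuronal markers, and of 1 of 8 markers of blood, vessel, fibroblast and microglial cells, so clusters alone did not set progenitors apart from glia and neurons.

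Sequence could be shown for clusters that lay wholly in the 250 bases before an annotated start, from the RefSeq promoter windows of GRCm38.p6. The 18 such clusters described here were found with a single chromosome left out of the search, so they may not be all. They lie just before the 5′ ends of genes on the same strand, 6 to 216 nt short of the annotated start. Examples are shown for that reason. Capitals mark the cluster and lower case the bases between the cluster and the first base of the locus, written 5′ to 3′ on the plus strand. The first, from chr5:115011375-115011523, precedes Sppl3, an intramembrane protease. The second, from chr6:87981535-87981682, precedes Gm5577 and lies between it and the linker histone gene H1f10 on the other strand. The third, from chr8:111056215-111056338, precedes Exosc6, a subunit of the RNA exosome, and the fourth, from chr11:94991057-94991211, precedes Ppp1r9b, the spine protein spinophilin. The Exosc6 cluster also lies 645 nt past the end of Aars, a gene on its own strand.
Sppl3: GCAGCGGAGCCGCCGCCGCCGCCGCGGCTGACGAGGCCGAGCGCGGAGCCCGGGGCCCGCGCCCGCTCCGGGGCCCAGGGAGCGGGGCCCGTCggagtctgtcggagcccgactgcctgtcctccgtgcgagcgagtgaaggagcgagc
Gm5577: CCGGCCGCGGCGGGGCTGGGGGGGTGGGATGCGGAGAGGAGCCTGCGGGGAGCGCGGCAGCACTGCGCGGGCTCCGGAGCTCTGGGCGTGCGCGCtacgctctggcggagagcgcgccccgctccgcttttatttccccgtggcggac
Exosc6: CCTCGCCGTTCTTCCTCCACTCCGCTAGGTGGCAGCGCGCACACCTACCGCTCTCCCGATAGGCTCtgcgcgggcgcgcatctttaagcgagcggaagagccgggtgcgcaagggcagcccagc
Ppp1r9b: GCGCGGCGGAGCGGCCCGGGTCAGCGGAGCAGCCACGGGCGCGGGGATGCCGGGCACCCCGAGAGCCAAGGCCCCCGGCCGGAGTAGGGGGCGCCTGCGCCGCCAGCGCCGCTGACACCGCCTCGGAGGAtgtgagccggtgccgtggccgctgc

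Guanine and cytosine made up 88.2% of the Sppl3 cluster, 82.1% of the Gm5577 cluster, 66.7% of the Exosc6 cluster and 81.5% of the Ppp1r9b cluster. Over the 18 clusters the median was 76.7% (44.4 to 88.2). The median over all 32851 windows of 250 bases before a start was 52.4% (quartiles 45.2 and 61.2). Those windows are not matched to the 18 clusters in length, position or gene, and the difference was not tested. The log2 folds of the 18 over input ran from -0.44 to 1.98 with a median of 0.64, so none lay above the fold threshold used below. The clusters printed for Sppl3, Gm5577 and Exosc6 had the highest folds. Ppp1r9b shared the next fold, 1.30, with B130006D01Rik, Car15 and Cdk14, which are not printed. Guanine and cytosine made up 44.4%, 60.5% and 82.4% of those clusters. Gm33272 and Cdk14 each supplied more than 1 of the 18.

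Each cluster comes with 2 values from the authors, the log2 fold between immunoprecipitate and input and the −log10 p of that fold. A cluster was called enriched where both values reached 3. Enriched clusters were 11.6% of all clusters, 14330 of 123349 (Wilson 95% interval 11.4 to 11.8). Outside the loci 132 of 973 were enriched, or 13.6% (interval 11.6 to 15.9), which is near that background and no result of its own. The median log2 fold outside was 0.98 (quartiles -0.02 and 2.30, range -5.23 to 7.19), against 0.71 for all clusters, and the median widths were 66 and 67 nt.

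The side on which an outside cluster lay went together with its enrichment. Of the 973, 699 (71.8%) lay downstream of the nearest locus, beyond its 3′ end, on the strand of that gene, and all 132 enriched clusters were among these. They made up 18.9% of the 699 (interval 16.2 to 22.0), and the median log2 fold of the 699 was 1.30. The type of neighbour varied as well. Among the 699, 125 of 519 clusters beside protein-coding genes were enriched (24.1%), 7 of 103 beside long non-coding RNAs (6.8%) and 0 of 67 beside microRNAs. Taking all sides, 627 clusters lay beside protein-coding genes, and the same 125 were enriched. None of 121 clusters upstream of the nearest locus on its strand was enriched (a count of 0 allows up to 2.48%). Of these 121, 31 before Mir125b-2 and 22 before Mir99a belong to 1 stretch past the end of Mir99ahg, described below. The rest of that stretch is among the 699. None of 47 clusters upstream on the opposite strand was enriched (up to 6.38%), and none of 25 downstream on the opposite strand (up to 12%). For 81 clusters the strand of the nearest locus was unknown, and none of these was enriched either (up to 3.70%). Clusters of 1 transcript are not independent, so these limits and intervals are narrower than they should be. Read depth was not matched between the sides, and clusters with few reads cannot reach both thresholds.

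With the nearest locus on the cluster's strand as neighbour, the strand matched by definition, and 132 of 132 enriched clusters were downstream. The placement also held with the nearest protein-coding locus, or with strands only from the annotation or from unanimous clusters. Each time 132 of 132 enriched clusters were downstream on the same strand. With a −log10 p of at least 5 it was 96 of 96. It did not hold for the wider set of clusters outside protein-coding loci only, which can lie in non-coding genes: 142 of its 164 enriched clusters were downstream on the same strand, 10 downstream and 7 upstream on the opposite strand, 4 upstream on the same strand and 1 beside a locus of unknown strand. With a fold of at least 2 it was 156 of 158, and the other 2 lay upstream of Camk2n1 and Lrrc4b. The strand of the neighbour came from the annotation for 782 outside clusters and from the gene's own clusters for 110. Where a locus had both, the sources gave the same strand in 6666 of 6689 loci.

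**Figure D1:**
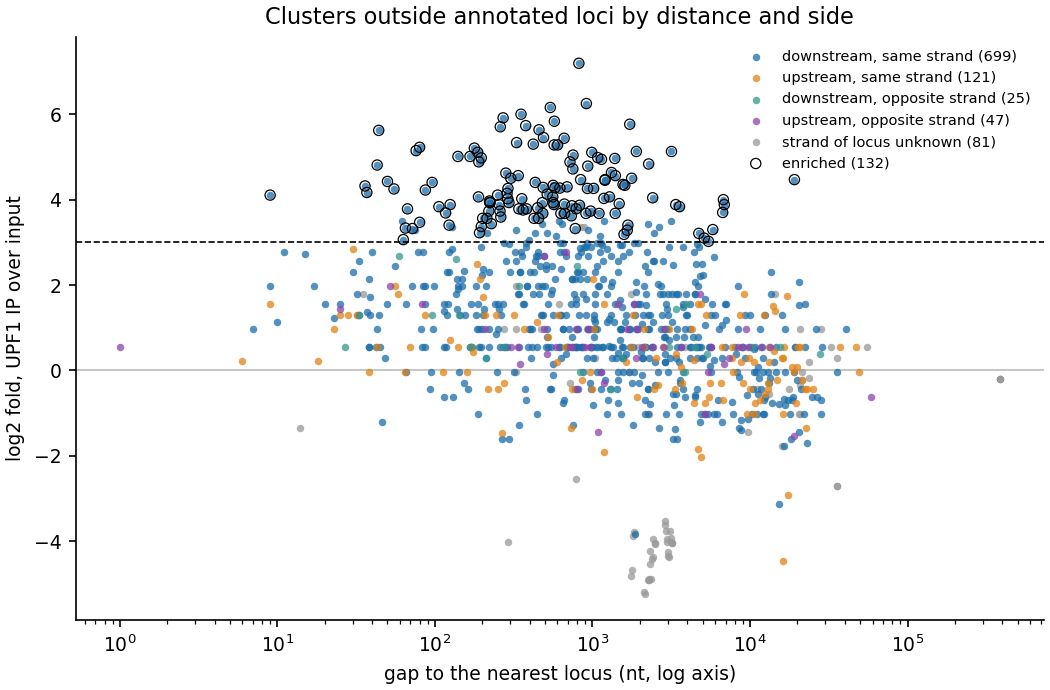
Log2 fold of each of the 973 outside clusters (vertical axis) against the gap in nt to the nearest annotated locus (horizontal log axis), coloured by side and strand, with enriched clusters ringed and the fold threshold of 3 dashed. The ringed clusters are all downstream on the same strand, and 98 of the 132 lie within 1000 nt of the locus; the group near -4 lies beside the ribosomal RNA copy Rn18s-rs5.

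Enrichment also varied with the distance from the 3′ end. The median gap between an enriched outside cluster and the locus was 502.5 nt (quartiles 222.75 and 1032.5, range 9 to 19139), against 1236 nt for all outside clusters (quartiles 381 and 4136, range 1 to 384739). Within 1000 nt of the locus lay 98 of the 132 enriched clusters (74.2%), and within 5000 nt 125 (94.7%). Among downstream clusters on the same strand, 28.4% were enriched up to 1000 nt beyond the end (98 of 345, interval 23.9 to 33.4) with a median fold of 2.15. The share was 18.4% from 1000 to 2000 nt (21 of 114, interval 12.4 to 26.5) and 4.72% from 2000 to 5000 nt (6 of 127, interval 2.18 to 9.92). From 5000 to 10000 nt it was 12% (6 of 50, interval 5.62 to 23.8), but all 6 belonged to 1 stretch on chromosome Y. Without that stretch and 2 others described below it was 0 of 19. From 10000 to 20000 nt 1 of 46 clusters was enriched, and beyond 20000 nt none of 17.

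Set against clusters inside genes at the same distance from the end, the outside shares were lower within the first 5000 nt. Inside the same neighbour genes, the last 1000 nt held 386 clusters and 40.7% were enriched (interval 35.9 to 45.6), against 31.1% of 180 from 1000 to 2000 nt (24.8 to 38.2) and 22.4% of 201 from 2000 to 5000 nt (17.2 to 28.6). The intervals up to 1000 nt and from 2000 to 5000 nt did not overlap those of the outside clusters, and the interval between them did. Over all protein-coding genes the inside shares were 36.6%, 40.5% and 27.7%. The distance inside a gene counts introns, and the distance outside would count them too if the RNA there is spliced.

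**Figure D2:**
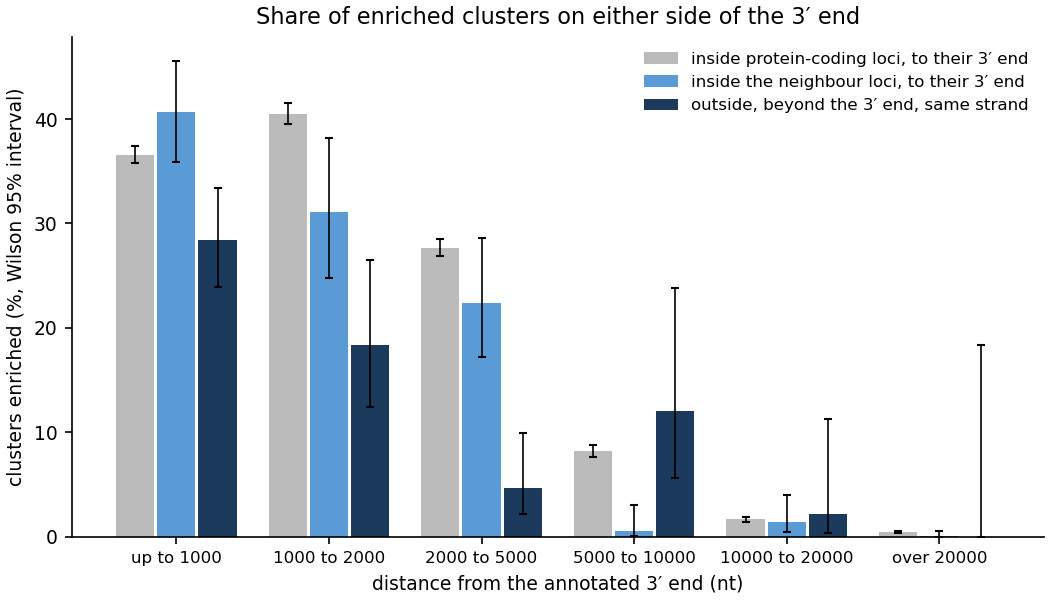
Percent of clusters that were enriched (vertical axis, from 0) by distance in nt from the annotated 3′ end (horizontal axis), with Wilson 95% intervals. Grey bars are clusters inside all protein-coding loci on their strand, light blue bars those inside the neighbours of the outside clusters, and dark blue bars the outside clusters beyond the end on the same strand: 28.4% up to 1000 nt, 18.4% up to 2000 nt and 4.72% up to 5000 nt, with the 12% from 5000 to 10000 nt coming from chromosome Y.

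Read counts were reconstructed from the stepped values of fold and p. The median enriched outside cluster had 61.5 immunoprecipitate reads (quartiles 36.5 and 116, range 24 to 347), much like the 63 of enriched clusters in a locus. The input count was 1 in 71 of the 132 (53.8%), so the fold of a single cluster is imprecise. Input counts were sought from 1 upward, so a 1 cannot be told apart from an empty input counted as 1. The fold intervals treat it as an observed read. The 594 outside clusters above input but not enriched held a median of 7 reads. No enriched outside cluster had fewer than 24, so clusters of low depth went uncalled at every side and distance. Depth was not matched between sides or distances. At the thresholds, the lowest enriched fold was 3.02 and the lowest −log10 p was 3.02. A further 21 clusters had a fold of at least 3 and missed the p threshold, with folds up to 3.50, and 31 had the p and missed the fold, with folds up to 2.99.

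Clusters on 1 strand within 1000 nt of each other were joined into runs, so that close clusters count once. A transcript end can still hold several runs, and the stretch past Mir99ahg described below formed 43. The 973 clusters formed 464 runs next to 347 genes, and 281 runs held 1 cluster. An enriched cluster occurred in 45 runs, 9.70% of all and 14.8% of the 305 that lay downstream on the strand of the neighbour. Those 305 runs stood beside 239 genes. The neighbour was protein-coding for 236 of the 305, against 29 of the 67 runs upstream on the same strand. Each of the 45 stood beside a different gene, and 44 of the 45 genes were protein-coding. Their first cluster lay a median of 128 nt beyond the annotated end, and in 42 it lay within 1000 nt. In 15 runs every cluster was enriched, and in 22 a single one was. The next locus on the far side, more distant than the neighbour by definition, lay at a median of 7663 nt, and the nearest of these was 287 nt away, beyond the run of Ctbp2. That far locus was on the strand of the run in 20 cases, on the opposite strand in 15 and of unknown strand in 10.

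**Figure D3:**
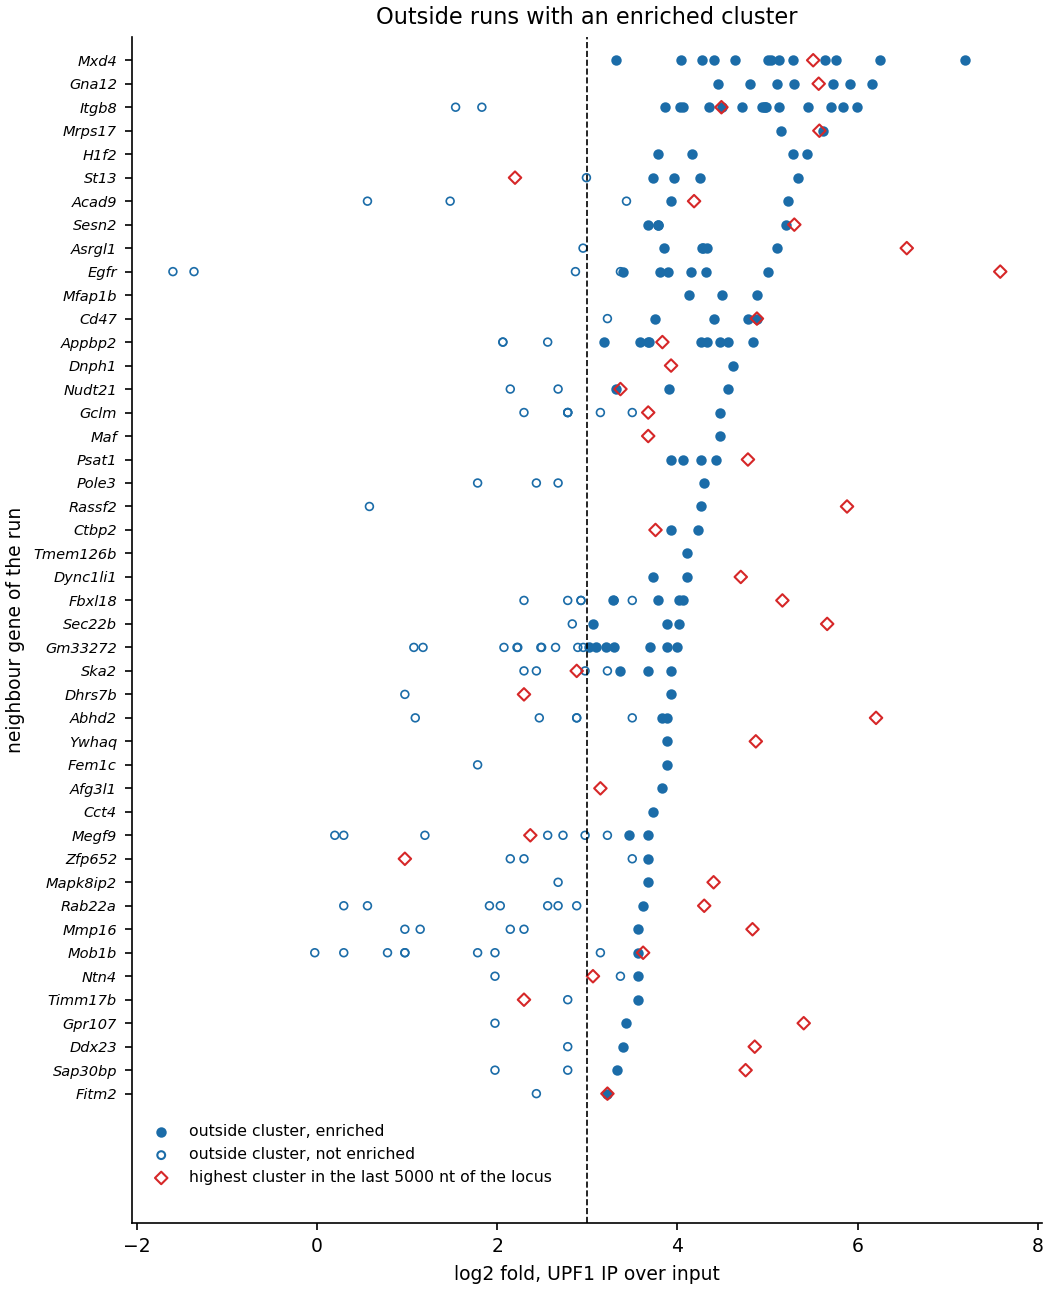
Log2 fold (horizontal axis) of each cluster in the 45 outside runs that held an enriched cluster, 1 line per neighbour gene ordered by highest fold, with the threshold of 3 dashed. Filled circles are enriched and open circles not enriched outside clusters, and red diamonds are the highest cluster in the last 5000 nt of the gene itself, absent where the gene has none there; the outside run reaches 7.19 beside Mxd4, and the gene itself stands higher in 17 of 38.

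The highest folds were found beside Mxd4, Gna12 and Itgb8. Beyond Mxd4, which encodes a repressor partner of MAX in the MYC network (chromosome 5, 34176580 to 34187710, minus strand), 13 of 13 clusters were enriched, from 72 to 2412 nt past the end. In order away from the gene, the log2 folds were 3.32, 4.40, 5.01, 5.63, 5.28, 4.27, 5.04, 7.19, 6.25, 4.63, 5.76, 5.13 and 4.04. The highest of these, at 34175665 to 34175759, rested on 297 reads against 1 and had a counting interval of 4.70 to 12.50. All 4 clusters in the Mxd4 locus were enriched as well, up to 5.51, so the enrichment ran on from the gene across its annotated end.

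Beyond Gna12, the alpha subunit of a heterotrimeric G protein (chromosome 5, 140759944 to 140830431, minus strand), 7 of 7 clusters were enriched between 43 and 1200 nt. Going outward, their log2 folds were 4.81, 5.11, 5.91, 5.73, 5.30, 6.16 and 4.45, and the highest had 145 reads against 1 (interval 3.65 to 11.47). The last cluster of the gene crossed the annotated end with a fold of 5.57 and touched the first cluster outside it. No break in the signal marked the end of the annotation here.

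Itgb8, the integrin beta subunit that pairs with alpha V (chromosome 12, 119162803 to 119238276, minus strand), had the most enriched sequence outside its end, 1182 nt in 15 of 17 clusters from 197 to 3174 nt. The highest log2 fold was 6.0 at 352 nt (130 reads against 1, interval 3.49 to 11.31), and the farthest cluster still reached 5.13. Between them lay 2 clusters that were not enriched, at 1.83 (405 reads against 56) and 1.54 (130 against 22). These had many immunoprecipitate reads, and it was the input that was high there. The 2 clusters of the gene in its last 5000 nt had folds of 4.49 and 4.47.

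Appbp2, whose protein binds the amyloid precursor protein (chromosome 11, 85191308 to 85235120, minus strand), had 9 of 12 outside clusters enriched between 117 and 2432 nt. The highest log2 fold, 4.83, lay 2273 nt out (58 reads against 1, interval 2.30 to 10.16), while the single cluster in the last 5000 nt of the gene had 3.83. Most of the enriched clusters assigned to this end therefore lay outside the annotated gene.

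Egfr, the receptor of epidermal growth factor (chromosome 11, 16752203 to 16913907, plus strand), showed the reverse order. Inside its last 5000 nt 14 of 14 clusters were enriched, up to a log2 fold of 7.58. Outside, 6 of 10 were, with folds of 4.32, 5.01, 4.15, 3.81 and 3.89 from 36 to 663 nt, 2.87 at 829 nt, 3.40 at 1679 nt and 3.37 without passing the p threshold at 2635 nt. The last 2 clusters, 3333 and 3441 nt out, lay below input at -1.36 and -1.60. Along this end the fold went from above 7 inside the gene to below 0 outside it.

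H1f2 encodes a linker histone, one of the histones whose replication-dependent mRNAs normally end at a stem-loop without a poly(A) tail. No cluster lay in the H1f2 locus (chromosome 13, 23738807 to 23739531, plus strand), but 4 of 4 clusters just beyond it were enriched. At 37, 341, 601 and 661 nt their log2 folds were 4.17, 3.78, 5.28 and 5.44, the last from 88 reads against 1 (interval 2.92 to 10.76). Linker histone genes share coding sequence, and reads that fit several copies can be placed at any of them or dropped, so the absence of clusters in the locus is uncertain.

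**Figure D4:**
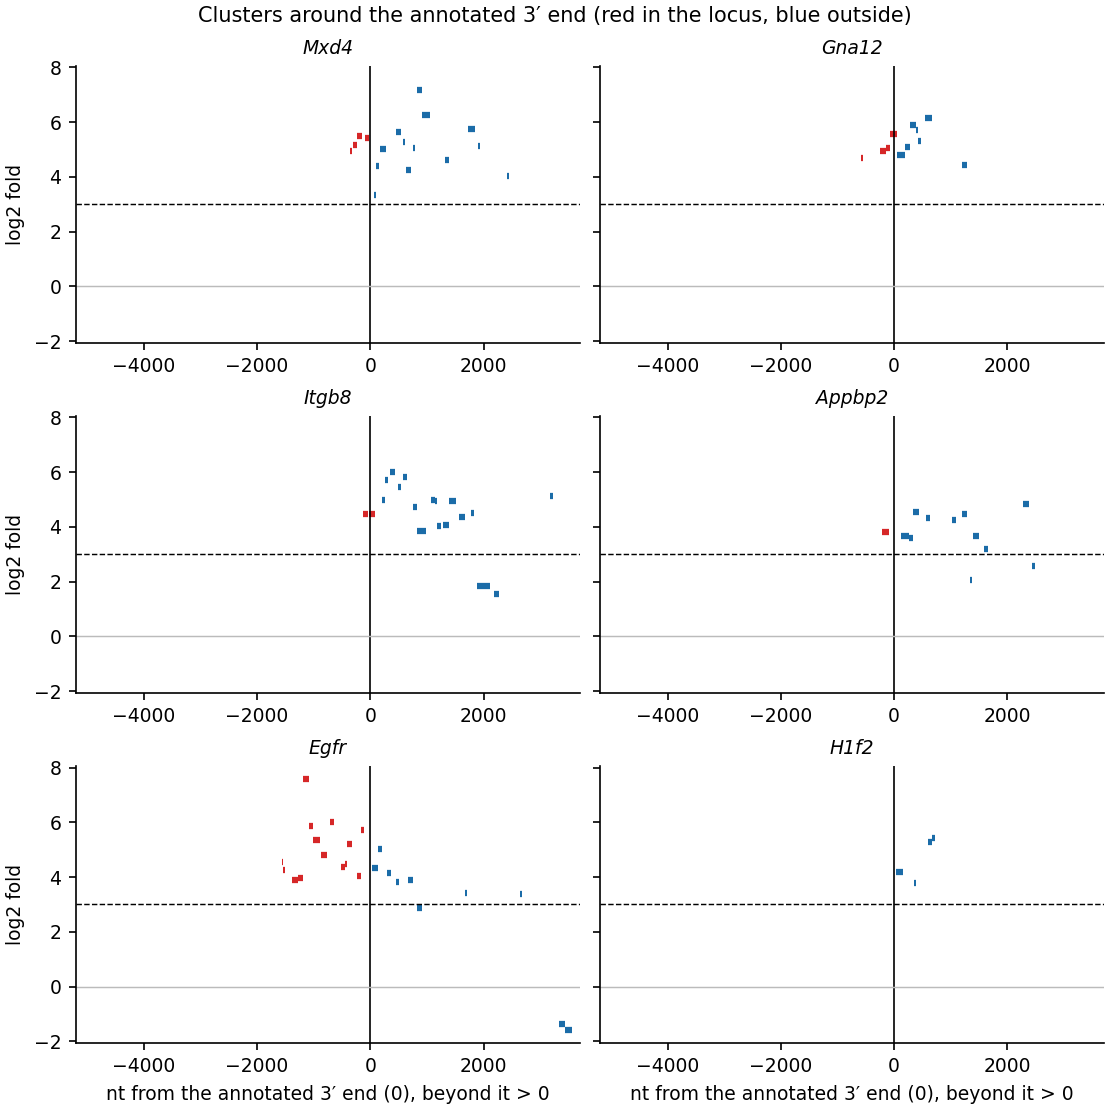
Clusters around the annotated 3′ end of 6 genes, with position in nt from the end along the strand of the gene (horizontal axis, 0 is the end and positive values lie outside) and log2 fold (vertical axis); bars span the cluster, red in the locus and blue outside, and the threshold of 3 is dashed. Mxd4, Gna12, Itgb8 and Appbp2 continue above 3 for 1200 nt or more past the end, Egfr falls from 7.58 inside to -1.60 outside, and H1f2 has clusters only outside.

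Several other runs among the 20 highest also held more than 1 enriched cluster. Beside Mrps17, a protein of the mitochondrial ribosome, 2 of 2 clusters were enriched at log2 folds of 5.62 and 5.15, the first touching a cluster of 5.58 that crossed the end of the gene. Beside St13, a cochaperone of Hsp70, 4 of 5 were enriched, up to 5.33, where the only cluster in the last 5000 nt of the gene had 2.20. Acad9, which takes part in assembly of respiratory complex I, had 2 of 5 enriched, up to 5.22, and Sesn2, a stress-induced regulator of mTORC1, had 4 of 4, up to 5.20. Asrgl1, an asparaginase, had 5 of 6 enriched up to 5.11 outside and 9 of 9 up to 6.55 inside. Psat1, an enzyme of serine synthesis, had 4 of 4 outside, at 4.42, 4.06, 3.93 and 4.26 going outward, and 6 of 8 inside, up to 4.78.

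Cd47, the surface protein that restrains phagocytes, had 4 of 5 clusters of its run enriched, up to a log2 fold of 4.88, which equalled the highest cluster inside the gene. Beside Mfap1b, a spliceosome-associated protein, 3 of 3 were enriched at 4.88, 4.50 and 4.13 while the locus itself had no cluster. Mfap1b has a close copy, Mfap1a, and reads that fit both could be placed at either, so its values are uncertain. Nudt21, a subunit of the cleavage factor that helps choose polyadenylation sites, had 3 of 5 enriched, reaching 4.56 at 1398 nt, and 3.37 at its own end without passing the p threshold. The remaining neighbours of the 20 highest runs had 1 enriched cluster each: Dnph1, a nucleotide hydrolase (4.62), Gclm, a subunit of the enzyme that starts glutathione synthesis (4.47, with 6 other clusters between 2.30 and 3.50), Pole3, a subunit of DNA polymerase epsilon (4.30), Rassf2, a Ras-association protein (4.26), and Maf. In the other 25 runs the highest fold lay between 3.22 and 4.22. Among these, Ctbp2, a transcriptional corepressor, reached 4.22 outside and 3.76 inside, and Sec22b, a SNARE of the secretory pathway, 4.02 outside and 5.66 inside.

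Maf, a transcription factor of the basic leucine zipper class (chromosome 8, 115703253 to 115706894, minus strand), marks the far limit. Its enriched cluster lay 19139 nt past the annotated end with a log2 fold of 4.47 (45 reads against 1, interval 1.92 to 9.80). It was the only cluster of its run. Another outside cluster, at positions 298 to 339 past the end, was not enriched and had a log2 fold of -1.61. The strand of Maf was taken from its own 4 clusters, of which 2 were enriched, up to 3.68. The next farthest enriched runs began at 4473 nt beside Gm33272, at 2072 nt beside Abhd2, a hydrolase, at 930 nt beside Rassf2 and at 622 nt beside Gclm. An assignment over 19139 nt is a statement of position, and whether that RNA belongs to Maf was not tested.

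Gm33272, a long non-coding RNA, was the only neighbour of an enriched run that was not protein-coding. It lies on chromosome Y (90793687 to 90806846, plus strand), near the end where Y shares sequence with X. Of 17 clusters 7 were enriched, at log2 folds of 3.02 to 4.0, and the others ran from 1.08 to 2.96. The run lay between 4473 and 7061 nt past the annotated end, from 90811320 to 90813922, and the gene had no cluster in its last 5000 nt. Its highest cluster had 130 reads against 4, and another enriched one had 347 against 21. In the other runs no enriched cluster had more than 9 input reads, though a cluster beside Itgb8 that was not enriched had 56. Reads that fit both sex chromosomes could have been counted at either, so the placement is uncertain.

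The outside runs were next set beside the ends of their own neighbours. Of the 45 neighbours 38 had clusters in their last 5000 nt, and 28 of these had an enriched one (73.7%, interval 58.0 to 85.0). Another 194 genes stood beside downstream runs and never beside an enriched one. Counting each gene once, 143 of them had clusters in their last 5000 nt and 38 an enriched one (26.6%, interval 20 to 34.4), and the intervals did not overlap. The median of the highest folds at the 38 ends was 4.45 inside and 4.08 outside, and the inside cluster was the higher in 17 of 38. The distance between the last cluster of the gene and the first of the run had a median of 203 nt for 41 enriched runs whose neighbour had any cluster. For 208 runs without enrichment it was 1318 nt. These 208 were not counted once per gene and include later runs of the same gene, which the joining rule places farther out. Each enriched run had a gene of its own, so part of this difference can come from the counting, and it was not tested.

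For 17 of the 45, no cluster at the gene's own annotated end was enriched. The 4 neighbours without any cluster of their own were H1f2, Mfap1b, Pole3 and Tmem126b, a mitochondrial protein. Fem1c, a substrate receptor of a ubiquitin ligase, Cct4, a subunit of the cytosolic chaperonin, and Gm33272 had clusters, but none in the last 5000 nt. In 10 others the end had clusters and none enriched: St13, Nudt21, Dhrs7b, Ska2, Afg3l1, Zfp652, Megf9, Ntn4, Timm17b and Fitm2. Zfp652, a zinc finger protein, had the lowest end of these, with 5 clusters up to a log2 fold of 0.98 inside and an enriched cluster of 3.68 at 1101 nt outside. That outside cluster had 26 reads against 1 and an interval of 1.07 to 9.03. In the opposite case, Mmd2 had 10 of 12 clusters enriched in its last 5000 nt, up to 6.99, and 2.88 in its highest outside cluster, and Dnajc5, a cochaperone of synaptic vesicles, had 17 of 17 inside and 2.44 in a lone cluster 2154 nt outside.

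The 5 runs with the most enriched clusters accounted for 51 of the 132 (38.6%). By length, the enriched sequence came to 1182 nt beside Itgb8, 966 beside Mxd4, 831 beside Appbp2, 831 beside Gm33272 and 640 beside Gna12. St13 followed with 413 nt, Mfap1b and Asrgl1 with 411 each, Egfr with 407 and Cd47 with 368. The sum over all 45 runs was 11632 nt.

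The neighbours included no gene of the lists chosen for these cells, which with 347 neighbours among 49997 loci says nothing about lists this short. No outside cluster lay next to any of 16 factors of nonsense-mediated decay, 17 progenitor markers, 12 glial markers or 12 neuronal markers. Within loci, on the strand of the gene and away from other loci, enriched clusters were found in 3102 of 9378 genes with a cluster (33.1%). They were found in 6 of 15 decay factors with such a cluster, 9 of 14 progenitor markers, 9 of 10 glial markers and 5 of 9 neuronal markers.

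The largest group of outside clusters was not enriched at all. On chromosome 16, 142 clusters (14.6% of the 973) lay on the plus strand from 77559664 to 77686915, past the annotated end of Mir99ahg, a long non-coding RNA known as the host of a microRNA group. The nearest locus was Mir125b-2 for 61, Mirlet7c-1 for 30, Mir99ahg for 29 and Mir99a for 22. These 3 microRNAs are widely conserved, and let-7 and miR-125 are known for roles in neural differentiation. Their mature 5p forms, from RefSeq on GRCm38.p6, are shown because they name the neighbours and do not share a seed. Capitals mark the seed, bases 2 to 8, the part that pairs with targets.
mmu-miR-99a-5p: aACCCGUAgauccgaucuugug
mmu-let-7c-5p: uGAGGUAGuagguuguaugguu
mmu-miR-125b-5p: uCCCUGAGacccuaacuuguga

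None of the 142 clusters was enriched (a count of 0 allows up to 2.11%). Their median log2 fold was -0.18, the highest was 2.06, and 85 (59.9%, interval 51.6 to 67.6) were at or below 0. Inside Mir99ahg, 155 clusters on the same strand gave nearly the same picture: none enriched, a median of -0.02, and 59.4% at or below 0 (interval 51.5 to 66.8). By neighbour, the medians were -0.44 for the 29 clusters next to Mir99ahg, -0.36 for the 22 before Mir99a, -0.02 for the 30 after Mirlet7c-1, 0.09 for the 31 before Mir125b-2 and -0.33 for the 30 after it. The signal thus stayed near the level of input for 127252 nt past the end of the annotation, as it did within it.

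**Figure D5:**
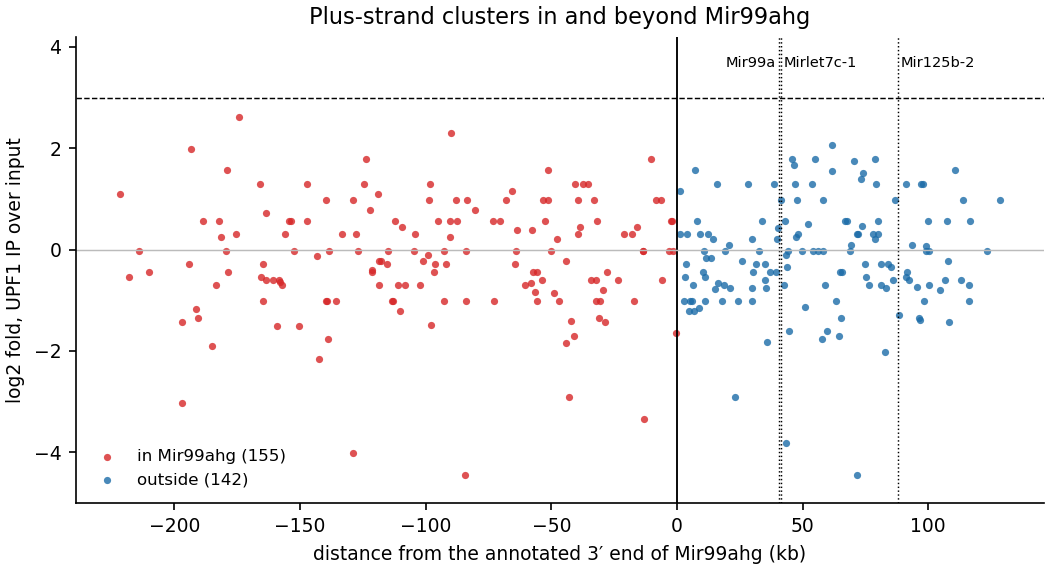
Log2 fold (vertical axis) of the plus-strand clusters in Mir99ahg (155, red) and past its annotated 3′ end (142, blue), by distance from that end in kb (horizontal axis, negative inside); dotted lines mark the 3 microRNA hairpins and the dashed line the threshold of 3. Both sides scatter around 0, with medians of -0.02 and -0.18, and no cluster reaches 3.

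The lowest outside clusters lay beside Rn18s-rs5, a pseudogene named for the RNA of the small ribosomal subunit (chromosome 17, 39846354 to 39848202). On the plus strand 31 clusters between 39843131 and 39846060 had log2 folds from -5.23 to -3.51, with a median of -4.06. They made up 31 of the 34 outside clusters at or below -3, where the whole list had 577. The 5 lowest, -5.23, -5.19, -4.91, -4.90 and -4.89, all lay here within 2301 nt of Rn18s-rs5. Ribosomal RNA genes are repeated and their reads fit many copies. The deposited list gives every cluster below input a −log10 p of 0. This is therefore a description of depth over input at 1 mapped copy.

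Upstream of genes on the same strand the median log2 fold was 0.30, against 1.30 downstream, a difference that was not tested. The stretch past Mir99ahg supplied 31 and 22 of the 121 upstream clusters, before Mir125b-2 and Mir99a. It supplied 29, 30 and 30 of the 699 downstream ones, after Mir99ahg, Mirlet7c-1 and Mir125b-2. The highest upstream cluster on the same strand lay 30 nt before Camk2n1, an inhibitor of the kinase CaMKII, with a log2 fold of 2.85 and a −log10 p of 4.53 (44 reads against 3). Its neighbours farther out had 2.50 and 1.30. Lrrc4b, a synaptic adhesion protein, followed with 2.15 and a −log10 p of 3.02 (45 reads against 5) at 192 nt. The clusters printed above for Sppl3, with 16 reads against 2, and Exosc6, with 7 against 1, had 1.98 and 1.78. The fifth was a cluster of 1.78 before Mir125b-2 in the stretch past Mir99ahg. These upstream folds all stayed under the threshold of 3.

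On the opposite strand upstream, the highest clusters lay near Zc3h6 (log2 fold 2.78, 14 reads against 1), Zfp236 (2.68), H1f10 (1.98), Zbtb2 (1.78) and Purb (1.56). The H1f10 cluster is the one printed above for Gm5577: it lay 52 nt from the start of H1f10 and 53 nt before Gm5577 on its own strand. On the opposite strand downstream, the highest lay near Orc2, a subunit of the origin recognition complex (2.68), Prr36 (2.62), Zfhx2 (1.56), Plcd4 (1.30) and Ccdc90b (1.30). The Orc2 cluster lay 59 nt from Orc2 and 291 nt past the end of Nif3l1 on its own strand, so it was also downstream of a gene on its strand. Among clusters whose neighbour had no known strand the highest was 3.37 near Lactb2, with 21 reads against 1 and a −log10 p of 2.59 that missed the threshold.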

How the data were processed

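Per the submitters' processing notes, reads were handled with UMI-tools, cutadapt and STAR on mm10. The program that called clusters, the fold's formula and any filter are not named in the sources used here. The file deposited by the authors has no header. From its values, the authors normalized immunoprecipitate to input reads to make the deposited log2 fold. They capped the deposited −log10 p at 400. All 32999 clusters at or below 0 are deposited with a −log10 p of 0.

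Loci, strands and sequences came from RefSeq tables of GRCm38.p6. The table gives outer boundaries without exons. Strand came from promoter and microRNA entries (28097 loci), otherwise from at least 80% of a locus's own clusters, 2 or more (1612 loci). Gaps were measured edge to edge. Read counts were solved from fold and p, taking the immunoprecipitate as 2.03 times the input, and a match needed a p within 0.05 or 1%. Input counts were sought from 1 upward, so a count of 1 may stand for an empty input. This gave counts for 90019 of 90350 clusters above 0 and for 726 of 726 outside. Fold intervals are Clopper-Pearson and share intervals Wilson, both at 95%, and a share of 0 is given as 3 over the total. Library totals are not known. The scripts were tested on simulated data.

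The genes named were the neighbours of the 20 highest enriched runs, the 10 runs with most enriched nucleotides, the 5 farthest enriched runs, the 5 lowest clusters and the 5 highest runs of each side, and listed genes beside an enriched run. Other neighbours were named after their values were seen. Members and lists were chosen with earlier results of these data known. Alternatives changed the thresholds, the locus types, the overlap, the neighbour, the joining gap, the weighting and the own end. Python 3.11.15, numpy 2.4.6, pandas 2.3.3, scipy 1.17.1 and matplotlib 3.10.9 were used.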

Additional observations from a re-analysis of the deposited data

How the results depend on the processing

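With 1 immunoprecipitate and 1 input, nothing here measures the spread between cultures, and exons could not be told from introns. No paired analysis was possible because the immunoprecipitate and its input are a single pair without replication. With protein-coding loci only, 2738 clusters lay outside and 5.99% were enriched, 142 of these 164 downstream on the same strand. The enriched share of 13.6% became 16.2% with a fold threshold of 2 (12.9% of all clusters), 9.87% with a −log10 p of at least 5 (8.80%), 17.1% weighted by width (14.7%) and 6.27% with input counts of 1 uncalled (5.82%), under which 22 of the 45 runs kept an enriched cluster. In 2 alternatives chosen after seeing the data it was 9.70% with 1 cluster per run and 16% without the stretches of chromosomes 16, 17 and Y, where the share from 5000 to 10000 nt became 0%. The downstream share was 77.8% with the nearest locus on the cluster's strand. Up to 1000 nt, 19.4% were enriched with the stricter p, and from 2000 to 5000 nt 11.0% with the lower fold. Runs joined over 100 nt gave 75 with an enriched cluster. The cause of these shifts was not tested. The other 27 settings, such as 1059 clusters outside without pseudogenes, 1010 when a cluster counts as inside by its larger portion, and 54 runs with a fold of 2, moved less than the limits set.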

Other observations

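Some runs past annotated ends had clusters above input without an enriched one. Past Oip5os1, a long non-coding RNA known as Cyrano, a run of 12 clusters reached a log2 fold of 2.78, and a cluster at 199 nt had 2.22 with 38 reads against 4. Past Nlgn3, a postsynaptic adhesion protein, 9 clusters lay from 980 to 4332 nt, with folds from 0.78 to 3.44. The highest of these, 2266 nt out, had 22 reads against 1 and a −log10 p of 2.79, and the cluster at 1242 nt had 2.85 with 44 reads against 3. Around Sox2ot, the long non-coding RNA that overlaps Sox2, 3 clusters lay downstream and 3 upstream, and the highest of the 6 had 1.78.

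The plus strand carried 623 outside clusters, of which 49 were enriched, and the minus strand 350, of which 83 were. The 142 clusters past Mir99ahg and the 31 beside Rn18s-rs5 are all on the plus strand.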
